A study of Rattus norvegicus with 6 samples.

Results

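The genes of cholesterol and fatty acid synthesis were examined in RNA-seq of neonatal rat cardiac fibroblasts (NRCFs), the matrix-producing cells of the heart grown in primary culture. The list held 33 genes of textbook pathways, chosen by symbol with earlier results of these data known. It took in 18 enzymes of sterol synthesis, 6 genes of its regulation and transport, and 9 genes of fatty acid synthesis, elongation and desaturation. All 33 were among the 21857 gene symbols of the count files, and 32 had at least 10 counts in at least 3 libraries. Elovl6, an elongase of saturated fatty acids, had 0 to 2 counts per library and was not tested, while the kept member with the fewest counts, Insig2, averaged 220 counts per library.

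The study compared 3 libraries of cells given an empty plasmid (Vector, genotype label WT) with 3 libraries of cells given a plasmid for FTO, labelled FTO overexpression. FTO takes the methyl group off N6-methyladenosine (m6A), a mark on RNA. Both groups were primary cells from hearts of rats up to 3 days old, and the strain label reads Noway where the study design names Sprague-Dawley. Nothing in the labels says that the 3 libraries of a group came from separate animals or cultures, so the p-values measure the spread between these libraries, which may be technical.

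Cholesterol is built from acetyl-CoA through mevalonate, isoprenoid diphosphates, squalene and lanosterol. Its enzymes are controlled together by SREBP2, and those of fatty acid synthesis mainly by SREBP1c, transcription factors held in the endoplasmic reticulum by INSIG proteins and escorted to the Golgi by SCAP when sterols are low. The products of both branches are used, among other things, to build membranes.

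Before the results, the labels were checked against the data. Total counts ran from 13178952 to 17857999 per library. Fto, in CPM (each gene's share of a library's counts, on a common scale set by edgeR's TMM factors), was 87.8, 89.7 and 87.4 in Vector and 93.2, 90.8 and 92.9 in the libraries labelled FTO. The fold was 1.05 (95% interval 0.976 to 1.12, edgeR adjusted p = 0.239), so the files do not show the targeted gene raised, and "labelled FTO" is used throughout. The 2 groups stood far apart as a whole. Of 13024 genes tested by the quasi-likelihood test of edgeR, 8559 (65.7%) had a Benjamini-Hochberg adjusted p under 0.05. With 33.1% of all genes higher and 32.6% lower under the FTO label, the calls were nearly balanced, and for 70.1% of genes no library of 1 group fell within the CPM range of the other.

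Markers of several cell types were counted beside all genes tested, of which 33.1% were higher, 32.6% lower and 65.7% called in either direction. In lists this short the counts alone say little about a cell type. Fibroblast markers were abundant in every library, with a summed level of 41318 to 41924 CPM in Vector and 15272 to 16688 CPM in the libraries labelled FTO. Most of these sums came from 2 collagens, Col1a1 (means of 25806 and 8268 CPM) and Col3a1 (10698 and 3338 CPM). Of the 8 fibroblast markers 5 fell, among them Col1a1 and Vim, and 3 rose, among them Pdgfra. Of 10 macrophage markers 9 fell and 1, Adgre1, rose (4.65-fold), the summed level going from 606 to 629 CPM in Vector to 155 to 174 CPM. The falls were uneven, the smallest being that of Fcgr1a, to 0.654 of its Vector level. C1qb, a complement chain typical of macrophages, had 1 or 2 counts in each library labelled FTO. It met the count rule through Vector alone, as did C1qc. Of 8 cardiomyocyte markers 7 rose and 1 fell, with summed levels of 1416 to 1439 CPM and 2002 to 2029 CPM. Mural markers numbered 2 higher and 3 lower of 5 tested (summed 636 to 661 and 230 to 274 CPM), and endothelial markers 3 higher and 2 lower of 6 tested (summed 121 to 128 and 109 to 116 CPM). Schwann cell markers had 2 of 4 tested lower (summed 30.0 to 33.2 and 26.5 to 28.5 CPM), of which Sox10 met the count rule through Vector alone. The adipocyte markers, the list nearest to fat synthesis, summed to 13.3 to 17.2 CPM in Vector and 9.44 to 12.6 CPM in the libraries labelled FTO. Both tested members, Lep and Fabp4, were lower, but Lep met the count rule through Vector alone (18 to 21 counts against 0 to 5). Of the adipocyte markers under the count rule, Pck1 was at 0 in all 6 libraries, and Adipoq had 0 or 1 count in Vector and 0 in the other group. Plin1 had 0 against 1 or 2 counts, and Cidec had 0 or 1 against 9 to 19 counts. In such bulk samples fewer cells of a type and less RNA per cell cannot be told apart. The part of these cell types in the results that follow was not tested.

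Of the 32 members tested, 29 passed the test, 23 of them higher and 6 lower than in Vector, beside the background of 65.7% of all genes passing. The branches differed in direction. Of the 18 sterol enzymes 17 rose and 0 fell, against 33.1% and 32.6% of all genes. The median log2 fold change of the sterol enzymes was 0.68, a fold of 1.60, where the median over all genes tested was 0.0016. Of the 8 tested fatty acid genes 2 rose and 5 fell, with a median log2 fold change of -0.14. Of the 6 regulation and transport genes 4 rose and 1 fell. The summed sterol enzymes measured 2379, 2345 and 2340 CPM in Vector and 3622, 3584 and 3420 CPM in the libraries labelled FTO, a ratio of means of 1.50. The summed fatty acid genes measured 3917, 3974 and 4013 CPM in Vector and 3733, 3794 and 3835 CPM in the other group, a ratio of 0.955. That sum rests on Scd2, and without it the ratio was 1.02 (1751 ± 6.36 CPM and 1787 ± 78.2 CPM, a sum chosen after the data were seen). A change of at least 2-fold was measured for 4 members, Lss, Ebp, Tm7sf2 and Insig1, all of them upward, where 19.7% of all genes passed the test with at least that change in either direction.

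**Figure D1:**
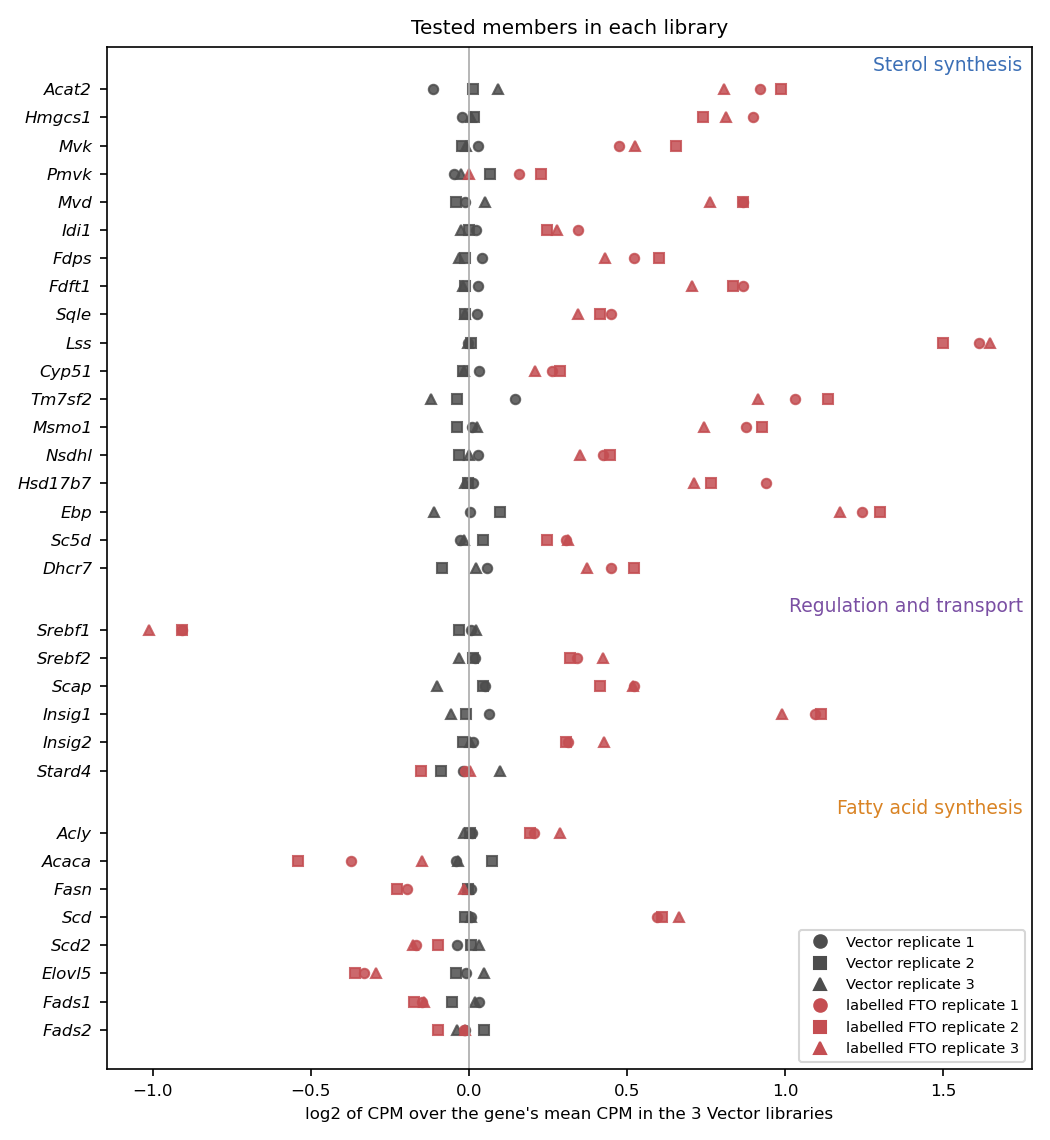
Each row is a tested member and each point a library, placed at the log2 of its CPM over the mean CPM of that gene in the 3 Vector libraries. Grey points are Vector and red points the libraries labelled FTO, with the replicate number given by shape. The red points lie to the right of the grey ones for 17 of 18 sterol enzymes and on both sides for the fatty acid genes. Of all 13024 genes tested, 4617 were higher in every library labelled FTO and 4514 lower.

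To show the sequence around the starts of members the results turn on, the 250 bases before the annotated start are given from RefSeq (rat assembly GRCr8) for Lss and Insig1, which rose most in their branches, for Hmgcs1, which makes HMG-CoA for the mevalonate route, and for both annotated starts of Srebf1, which fell. The count files carry no coordinates and were made on rn6, so these positions belong to GRCr8 alone. Lss lay at chr20:12118231-12118480 (minus strand), Hmgcs1 at chr2:53382054-53382303 (plus strand), Insig1 at chr4:8057770-8058019 (minus strand), and Srebf1 at chr10:45519011-45519260 and chr10:45529165-45529414 (minus strand). Sequences read 5′ to 3′ in the direction of the gene. Capitals mark the CCAAT box, a site for the factor NF-Y (CCAAT, or ATTGG on the other strand), the GC box, a site for SP1 (GGGCGG, or CCGCCC), and the E-box CACGTG.
Lss: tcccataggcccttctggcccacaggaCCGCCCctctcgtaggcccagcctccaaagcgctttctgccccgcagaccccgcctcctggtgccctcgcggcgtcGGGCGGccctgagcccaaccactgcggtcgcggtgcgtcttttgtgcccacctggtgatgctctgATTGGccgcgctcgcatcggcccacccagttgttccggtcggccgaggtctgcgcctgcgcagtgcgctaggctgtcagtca
Hmgcs1: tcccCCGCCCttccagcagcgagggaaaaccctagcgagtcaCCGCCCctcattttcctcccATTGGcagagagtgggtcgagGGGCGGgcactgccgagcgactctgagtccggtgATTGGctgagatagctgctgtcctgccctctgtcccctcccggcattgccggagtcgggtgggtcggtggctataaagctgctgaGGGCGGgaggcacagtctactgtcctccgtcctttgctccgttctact
Insig1: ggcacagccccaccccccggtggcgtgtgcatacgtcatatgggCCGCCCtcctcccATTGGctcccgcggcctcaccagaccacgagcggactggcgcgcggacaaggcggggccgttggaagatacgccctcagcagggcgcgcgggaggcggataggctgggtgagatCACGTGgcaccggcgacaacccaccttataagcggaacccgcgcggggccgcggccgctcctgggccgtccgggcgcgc
Srebf1, start at the lower coordinate: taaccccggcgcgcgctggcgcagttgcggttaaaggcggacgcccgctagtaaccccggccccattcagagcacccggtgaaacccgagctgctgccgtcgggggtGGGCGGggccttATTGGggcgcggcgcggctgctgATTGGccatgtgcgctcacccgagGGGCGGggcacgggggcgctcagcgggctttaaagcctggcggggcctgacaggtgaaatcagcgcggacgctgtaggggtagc
Srebf1, start at the higher coordinate: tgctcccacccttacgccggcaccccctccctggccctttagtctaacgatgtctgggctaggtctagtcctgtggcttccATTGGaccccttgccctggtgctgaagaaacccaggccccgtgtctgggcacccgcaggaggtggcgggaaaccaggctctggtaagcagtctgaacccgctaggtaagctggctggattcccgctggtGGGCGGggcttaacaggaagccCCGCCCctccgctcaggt

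A promoter was given for 26 of the 33 members, in 27 records. Acaca, Stard4, Pmvk, Fasn, Elovl6, Fdft1 and Sqle had none. The CCAAT box letters stood in 21 of the 27 records (77.8%), in 12 of 15 of the sterol enzymes (80.0%), and in 35.0% of the 10940 promoters of tested genes. The GC box letters stood in 21 of 27 records (77.8%) and in 56.9% of the promoters of tested genes. The E-box was found in 4 of 27, those of Elovl5, Insig1, Scap and Sc5d, and in 7.7% of the promoters of tested genes. The sterol regulatory element, searched on both strands as TCACNCCAC, was in 0 of 27 records and in 1.0% of the promoters of tested genes, which says only that those exact letters are not in these windows. These letters do not overlap each other in the 5 sequences printed, and a match describes the sequence, not a bound site. The Lss sequence, of the gene with the largest rise, holds a single CCAAT box and 2 GC boxes, as many GC boxes as either start of Srebf1, which fell.

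The early steps make isopentenyl diphosphate from acetyl-CoA, and 4 of their 5 enzymes on the list rose, where 33.1% of all genes did. Hmgcs1, HMG-CoA synthase, measured 336, 345 and 342 CPM in Vector and 635, 569 and 600 CPM in the libraries labelled FTO. Every library of the second group was above every Vector library, and the fold was 1.76 (95% interval 1.65 to 1.88, edgeR adjusted p = 2.6e-10). Acat2, the cytosolic thiolase that joins 2 acetyl-CoA, went from 44.6 ± 3.21 CPM to 83.6 ± 5.30 CPM (SD, n = 3 libraries, as for all means here), a fold of 1.87. The next 3 enzymes turn mevalonate into isopentenyl diphosphate. Mvk, the mevalonate kinase, rose 1.47-fold from 27.6 ± 0.477 CPM. Mvd, the decarboxylase that ends this stretch, rose 1.78-fold from 36.9 ± 1.21 CPM. Pmvk, the kinase between them, measured 22.9, 24.8 and 23.3 CPM in Vector and 26.4, 27.7 and 23.6 CPM in the libraries labelled FTO, so the groups overlapped through replicate 3 of the second group. Its fold was 1.09 (95% interval 0.966 to 1.23, edgeR adjusted p = 0.189), and without FTO replicate 3 its log2 fold change was 0.20 with an adjusted p of 0.0453 in edgeR. Pmvk was the only sterol enzyme of the list that did not pass with all 6 libraries.

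The isoprenoid stretch that follows is shared with the making of prenyl groups and dolichol. Idi1, which isomerises isopentenyl diphosphate, rose 1.22-fold from 130 ± 2.14 CPM to 159 ± 5.53 CPM. Fdps, farnesyl diphosphate synthase, rose 1.43-fold from 395 ± 10.1 CPM to 567 ± 33.6 CPM. Fdft1, squalene synthase, is the enzyme that commits farnesyl diphosphate to sterols. It measured 138, 134 and 134 CPM in Vector and 246, 241 and 220 CPM in the libraries labelled FTO, a fold of 1.74 (95% interval 1.62 to 1.88, edgeR adjusted p = 9.9e-10). No library of Vector reached the lowest of the other group for any of the 3. Of all 13024 genes tested, 4617 were separated in this direction.

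The 2 enzymes that lead from squalene to lanosterol changed by different amounts. Sqle, squalene epoxidase, a rate-limiting enzyme of the later pathway, went from 177 ± 2.64 CPM to 235 ± 8.53 CPM, a fold of 1.32 (95% interval 1.24 to 1.41). Lss, lanosterol synthase, which cyclises the epoxide made by Sqle, measured 45.2, 45.6 and 45.2 CPM in Vector and 139, 128 and 142 CPM in the libraries labelled FTO. Its fold of 3.01 (95% interval 2.78 to 3.26, edgeR adjusted p = 8.0e-13) was the largest among the 32 tested members, and its interval lies above that of Sqle.

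All 8 enzymes from lanosterol to cholesterol on the list rose, with folds from 1.19 to 2.36, where 33.1% of all genes rose. Ebp, the sterol isomerase, measured 21.0, 22.4 and 19.4 CPM in Vector and 49.6, 51.5 and 47.3 CPM in the libraries labelled FTO, a fold of 2.36 (95% interval 2.12 to 2.63, edgeR adjusted p = 6.9e-10). Tm7sf2, a sterol C14 reductase, measured 25.4, 22.3 and 21.1 CPM against 46.9, 50.4 and 43.2 CPM, a fold of 2.04 (95% interval 1.80 to 2.30). The groups were well separated for both genes. Msmo1, which oxidises the C4 methyl groups, rose 1.80-fold from 201 ± 4.46 CPM. Its partners in C4 demethylation, the dehydrogenase Nsdhl and the ketoreductase Hsd17b7, rose 1.33-fold and 1.75-fold. The smallest rise was that of Cyp51, the lanosterol demethylase, at 1.19-fold from 430 ± 8.80 CPM to 513 ± 14.3 CPM, and every library labelled FTO still lay above every Vector library. Sc5d and Dhcr7, which form and reduce the double bonds of the last steps, rose 1.22-fold and 1.36-fold.

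**Figure D2:**
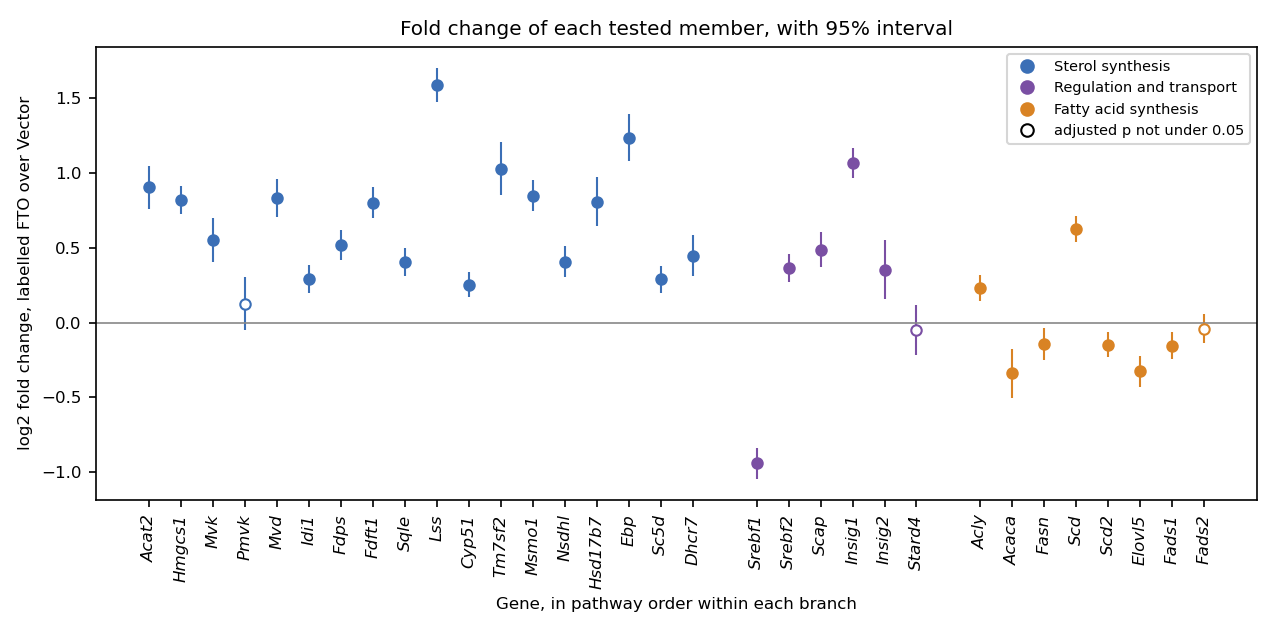
Points are log2 fold changes, labelled FTO over Vector, from edgeR, 3 libraries a group, with 95% intervals as lines, in pathway order within each branch. Filled points passed an adjusted p of 0.05. Lss stands highest at 1.59 and Srebf1 lowest at -0.94, and Pmvk, Stard4 and Fads2 have intervals that include 0.

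The regulators did not move together. Srebf1, which encodes SREBP1, measured 133, 130 and 135 CPM in Vector and 70.7, 70.7 and 65.7 CPM in the libraries labelled FTO. Its fold was 0.520 (95% interval 0.484 to 0.560, edgeR adjusted p = 1.7e-10), and no other member fell as far. Srebf2, which encodes SREBP2, measured 152, 151 and 146 CPM against 189, 187 and 201 CPM, a fold of 1.29 (95% interval 1.204 to 1.37, edgeR adjusted p = 3.7e-06). The paralogous factors thus moved in opposite directions in every library. The log2 ratio of Srebf1 over Srebf2 CPM within a library was -0.17 ± 0.049 in Vector and -1.48 ± 0.12 in the libraries labelled FTO (SD, n = 3), a difference of -1.30. The two-sided exact permutation p was 0.1, the smallest that 3 against 3 libraries can give. The counts sum over transcripts, so the SREBP1a and SREBP1c forms of Srebf1 were not separated.

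Scap, the escort and sterol sensor of the SREBPs, measured 82.7, 82.5 and 74.5 CPM in Vector and 115, 107 and 115 CPM in the libraries labelled FTO, a fold of 1.40 (95% interval 1.29 to 1.52). Insig1, an anchor of SCAP whose gene is itself an SREBP target, measured 257, 245 and 237 CPM against 526, 532 and 489 CPM. This was the largest rise outside the enzymes, 2.09-fold (95% interval 1.95 to 2.24, edgeR adjusted p = 1.7e-11). Insig2, the paralogous anchor, went from 13.05 ± 0.144 CPM to 16.6 ± 0.785 CPM, a fold of 1.28 (95% interval 1.12 to 1.46, edgeR adjusted p = 0.0032). Both Insig genes rose, by unequal amounts. The log2 ratio of Insig1 over Insig2 differed by 0.72 between the groups, from 4.24 ± 0.055 to 4.95 ± 0.13, with no overlap and the same smallest exact permutation p of 0.1. Stard4, a soluble carrier of cholesterol between membranes, measured 28.6, 27.2 and 31.0 CPM in Vector and 28.7, 26.0 and 29.0 CPM in the libraries labelled FTO. Its groups overlapped, with a fold of 0.967 (95% interval 0.862 to 1.08, edgeR adjusted p = 0.595).

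**Figure D3:**
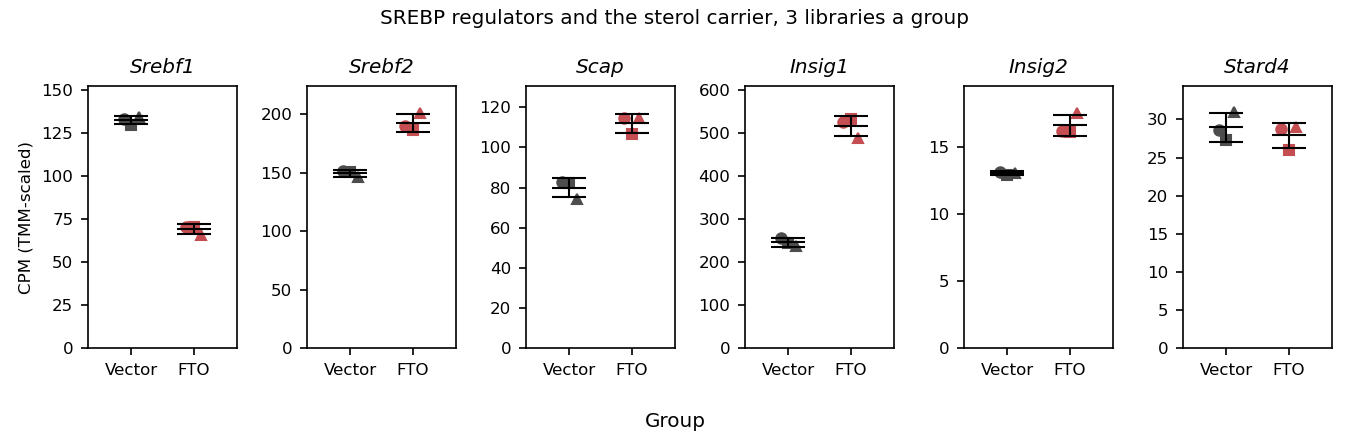
CPM of the 6 regulation and transport genes in the 3 Vector (grey) and 3 labelled FTO (red) libraries, 1 panel a gene with its own axis from 0. Long bars mark the mean and error bars the SD, and shapes give the replicate number as in the plot of all members. Srebf1 is lower in the libraries labelled FTO, Stard4 overlaps, and the other 4 are higher.

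In the fatty acid branch the changes ran both ways, with log2 fold changes from -0.34 to 0.62. Acly, ATP citrate lyase, which supplies cytosolic acetyl-CoA to both branches, measured 389, 387 and 382 CPM in Vector and 446, 441 and 471 CPM in the libraries labelled FTO, a fold of 1.17 (95% interval 1.11 to 1.25, edgeR adjusted p = 1.4e-04). Acaca, acetyl-CoA carboxylase 1, which makes malonyl-CoA, measured 99.6, 108 and 100.1 CPM against 79.1, 70.4 and 92.4 CPM. Its fold was 0.790 (95% interval 0.704 to 0.886, edgeR adjusted p = 0.0013), and the third library labelled FTO lay nearest to Vector. Fasn, the fatty acid synthase itself, measured 503, 501 and 500.2 CPM in Vector and 438, 428 and 496 CPM in the libraries labelled FTO. The groups did not overlap, but FTO replicate 3 lay close to the lowest Vector library and the other two well below it. The fold of Fasn was 0.906 (95% interval 0.841 to 0.977, edgeR adjusted p = 0.0227). The call on Fasn was lost when Vector replicate 2, FTO replicate 1 or FTO replicate 2 was left out, with edgeR adjusted p = 0.0502, 0.118 and 0.0584.

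The desaturases of saturated fatty acids moved apart. Scd, stearoyl-CoA desaturase, which makes oleate and palmitoleate, measured 177, 174 and 177 CPM in Vector and 266, 268 and 279 CPM in the libraries labelled FTO. Its rise of 1.54-fold (95% interval 1.45 to 1.64, edgeR adjusted p = 2.5e-09) was the largest of this branch. Scd2, its paralogue with the same reaction, measured 2158, 2226 and 2265 CPM against 1972, 2070 and 1961 CPM, a fold of 0.903 (95% interval 0.852 to 0.956, edgeR adjusted p = 0.0037). The ratio of Scd to Scd2 CPM was 0.0819, 0.0783 and 0.0780 in Vector and 0.135, 0.130 and 0.142 in the libraries labelled FTO. On the log2 scale this ratio differed by 0.77 (exact permutation p = 0.1, two-sided, the smallest possible). The paralogues are similar in sequence and the treatment of reads that fit both is not given in the sources used here, so their separate counts are uncertain to that extent.

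Of the genes acting on polyunsaturated fatty acids, Elovl5, an elongase, fell from 108 ± 3.31 CPM to 85.9 ± 2.01 CPM, a fold of 0.798. Fads1, the delta-5 desaturase, fell to 0.899 of its Vector level (95% interval 0.846 to 0.955), from 304 ± 9.61 CPM to 273 ± 3.21 CPM. Its neighbour Fads2, the delta-6 desaturase, measured 172, 180 and 170 CPM in Vector and 172, 163 and 173 CPM in the libraries labelled FTO. Fads2 overlapped between the groups, with a fold of 0.972 (95% interval 0.910 to 1.04, edgeR adjusted p = 0.437). When each change was tested against a 1.2-fold minimum (glmTreat of edgeR), Scd was the single fatty acid gene called and 14 of 18 sterol enzymes passed, where 43.7% of all genes did.

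The 3 libraries labelled FTO also varied among themselves by branch. Replicate 3 was the lowest of the 3 for 13 of 18 sterol enzymes and the highest for 7 of 8 fatty acid genes. Replicate 2 was the highest for 11 of 18 sterol enzymes and the lowest for 6 of 8 fatty acid genes. These genes share their libraries, so the counts describe the libraries and are no test.

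**Figure D4:**
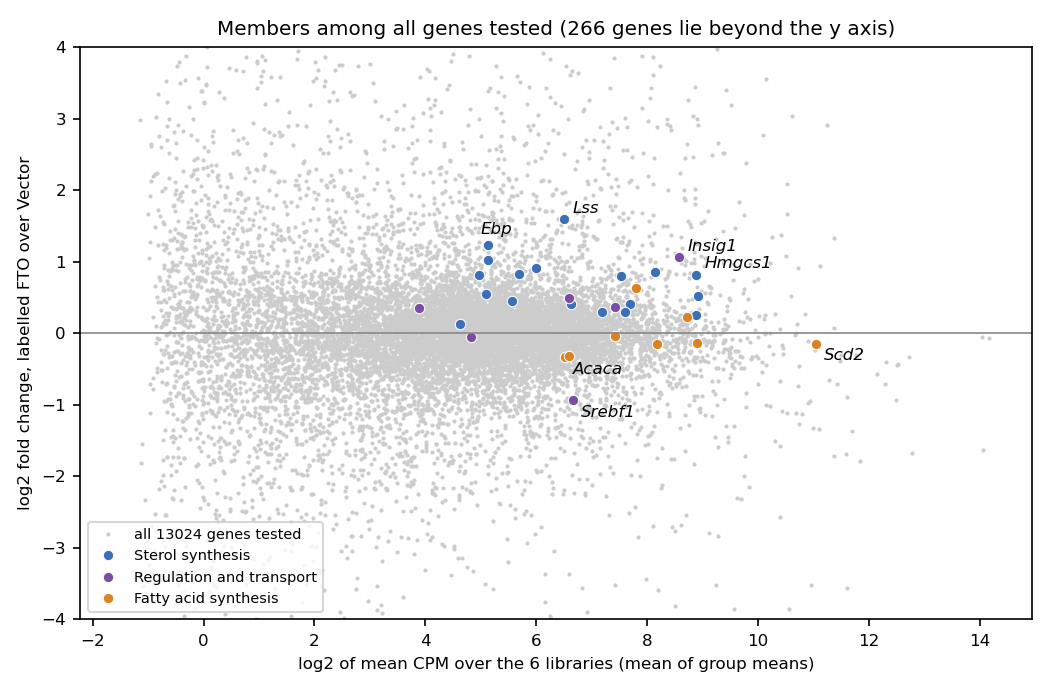
Each point is a gene, with the log2 of its mean CPM on the x axis and its log2 fold change, labelled FTO over Vector, on the y axis, and members coloured by branch. The y axis stops at 4 in both directions, which leaves out 266 genes. Sterol enzymes lie from 0.13 to 1.59, above the median of all genes, and tested fatty acid genes from -0.34 to 0.62.

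The other genes of these pathways, from lists written from textbook knowledge with earlier results of these data known, gave the following. Lbr, a nuclear envelope protein that catalyses the same C14 reduction as Tm7sf2, measured 35.6, 35.9 and 35.2 CPM in Vector and 32.1, 29.4 and 28.9 CPM in the libraries labelled FTO. Its fold was 0.846 (edgeR adjusted p = 0.0060), opposite in direction to Tm7sf2. Of 9 genes of SREBP cleavage and of sterol-driven enzyme degradation, 1 rose and 4 fell, a share below the 65.7% of all genes that passed in either direction, with a median log2 fold change of -0.06.

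All 9 genes listed for sterol uptake, export from lysosomes, storage, oxysterol formation and oxysterol sensing passed the test, 7 higher and 2 lower, beside 33.1% and 32.6% of all genes. Between 7 and 9 passed when single libraries were left out. The 3 genes past 2-fold were oxysterol enzymes. Cyp7b1, an oxysterol 7-alpha-hydroxylase, measured 5.78, 4.43 and 5.33 CPM against 136, 146 and 118 CPM, a fold of 25.8 (edgeR adjusted p = 5.0e-15). Cyp27a1, the sterol 27-hydroxylase, rose 3.71-fold from 11.2 ± 0.699 CPM, and Ch25h, cholesterol 25-hydroxylase, rose 2.16-fold from 17.4 ± 0.9997 CPM.

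Among 24 further genes of fatty acid synthesis, elongation and activation, 20 were tested, 12 rose and 6 fell, beside 33.1% and 32.6% of all genes. Mlxipl, which encodes the glucose-responsive factor ChREBP, measured 0.878, 0.940 and 0.831 CPM in Vector and 23.7, 25.0 and 34.2 CPM in the libraries labelled FTO. Its fold was 31.2 (95% interval 22.9 to 42.5, edgeR adjusted p = 1.1e-11), over a low Vector level with as few as 12 counts in a library. The mitochondrial-surface carboxylase Acacb rose 2.14-fold from 4.78 ± 0.360 CPM, opposite in direction to Acaca. Acsl1, which activates long-chain fatty acids, rose 2.61-fold from 30.9 ± 1.07 CPM. Elovl4, an elongase of very long chains, rose 2.60-fold, and Lpin1, a phosphatidate phosphatase, rose 2.06-fold.

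**Figure D5:**
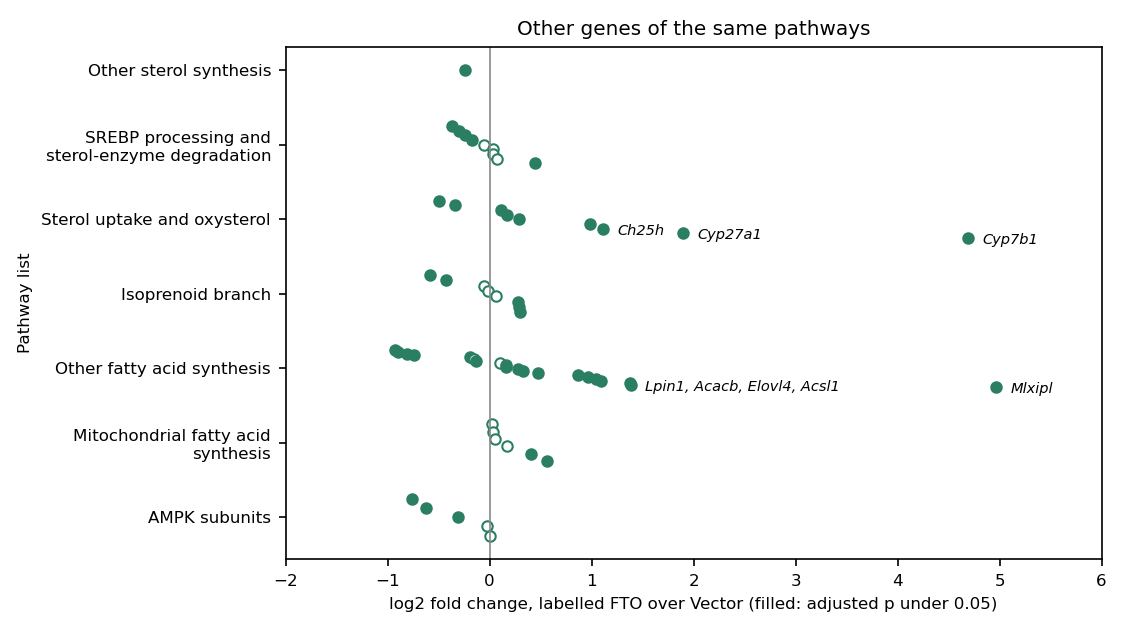
Log2 fold changes, labelled FTO over Vector, of the tested genes of 7 further pathway lists, 1 point a gene, filled where the adjusted p was under 0.05. Genes past 2-fold are named, from left to right where several share a label, and Cyp7b1 (4.69) and Mlxipl (4.96) stand farthest from 0.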

How the data were processed

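For each of 6 libraries of total RNA the authors deposited a file of unnormalized read counts by gene symbol. The submitters' processing notes name Trimmomatic and the rat build rn6. The aligner, counter, annotation and strand setting are not given in the sources used here. Each library was assigned by its genotype label. Genes with at least 10 counts in at least 3 libraries were kept (13024 of 21857), scaled by TMM and compared by the two-sided quasi-likelihood test of edgeR 4.0.16 in R 4.3.3 with no covariate, with Benjamini-Hochberg adjustment over all genes tested. SE and 95% intervals came from the fold change and its F statistic. They cover counting error and the spread of libraries only. Paralogue ratios were compared by exact permutation. The 33 members, all gene lists and the tests were chosen with earlier results of these data known. Genes named were the members, Fto, some of the defining markers and, of other pathway lists, those called with at least a 2-fold change. The other markers named, Lbr and the genes named under other observations were added after their values were seen. Prkag1, Foxd3 and some further genes of these pathways are not reported here. Alternatives were DESeq2 1.42.0, limma-voom (limma 3.58.1), other scalings and filters, a block for the replicate number, glmTreat with a 1.2-fold minimum, 0.5 CPM added to ratios, and leaving out each library. The fit was tested on simulated counts of the 13024 genes kept, 200 of them changed, a far smaller part than the 65.7% called in the data. The count rule, applied again to the simulated counts, left 12893 genes, and changed genes it dropped counted as not recovered. The fit recovered 27 of 50 genes changed 1.25-fold and 36 of 50 changed 1.5-fold. At 2-fold and at 3-fold it recovered 46 of 50, and it called 7 of 12699 unchanged genes. Promoters came from RefSeq (GRCr8), matched by symbol.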

Additional observations from a re-analysis of the deposited data

How the results depend on the processing

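Over the 32 tested members, 14 alternatives gave 448 fold changes in all, of which 433 kept their direction and their side of the threshold. With glmTreat against 1.2-fold, which asks for a larger change by construction, 5687 genes were called in all (2841 higher), 1 fatty acid gene (1 higher, 0 lower), 1 isoprenoid gene, 1 mitochondrial fatty acid gene, 2 genes of SREBP processing and degradation, 5 of sterol uptake and oxysterols, 1 adipocyte marker and, with Lbr no longer called, 0 further sterol enzymes. Leaving out single libraries gave 17 to 18 sterol enzymes, 6 to 7 fatty acid genes, 1 to 2 adipocyte markers and 1 to 2 Schwann cell markers called, the lower marker counts without Vector replicate 1, 2 or 3. The count rule was applied again in each of these fits. Lep had 18 to 21 counts in Vector and 0 to 5 in the other group, so without a Vector library it was not tested. The Schwann cell marker Sox10 also reached 10 counts in the Vector libraries alone. The log2 fold change of Stard4, which passed in no fit, was -0.05 with all libraries and ran from -0.10 without Vector replicate 2 to 0.00117 without FTO replicate 2, the single reversal among members. The ratio of the summed fatty acid genes was 1.02 with Scd2 left out of the sum, an alternative chosen after seeing the data. The paralogue ratios kept their sign in each alternative. Same-numbered libraries of the 2 groups did not deviate together (correlations of -0.057 to 0.017 over genes), so the numbers were not taken as pairs. With the replicate number as a block, 17 sterol enzymes, 5 regulation and transport genes and 7 fatty acid genes were called, of 8430 genes in all.

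A floor of 3 counts was worth 0.168 to 0.227 CPM, so Elovl6 was not measurable at this depth. The exact permutation tests cannot go below 0.1.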

Other observations

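Other lists bordered on these pathways, and their counts are read against all genes tested, of which 33.1% were higher, 32.6% lower and 65.7% called in either direction. Of 8 genes of the isoprenoid branch, which uses the intermediates of sterol synthesis for dolichol, ubiquinone and protein prenylation, 3 rose and 2 fell, a share near that of all genes. Dhdds and Nus1, subunits of the prenyltransferase of dolichol synthesis, rose 1.22-fold and 1.23-fold. Of the protein prenyltransferase subunits, the shared alpha subunit Fnta rose 1.21-fold, and the beta subunits Fntb and Pggt1b fell to 0.742 and 0.668 of their Vector levels. Of 6 genes of mitochondrial fatty acid synthesis, a pathway separate from the cytosolic synthase, 2 rose and 0 fell, fewer calls than the share of all genes, with Oxsm at 1.47-fold and Hsd17b8 at 1.33-fold. Of 5 tested subunits of AMPK, the kinase that inhibits the acetyl-CoA carboxylases, 0 rose and 3 fell, namely Prkaa1, Prkab2 and Prkag2, with folds of 0.807, 0.591 and 0.650, again a share of calls near that of all genes.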
